A study of Bos grunniens with 3 samples.

Results

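The cells described here were the inner root sheath (IRS) keratin cells of white yak skin, defined in each library as cells with at least 200 detected genes in which *KRT71*, *KRT25*, *KRT27* and *KRT28* together made up at least 1% of the unique molecular identifiers (UMIs) and *KRT85* and *KRT35* together less than 1%. The rule found 218 of 11987 cells in anagen, 148 of 12062 in catagen and 80 of 14502 in telogen, or 446 of 38551 cells in all. In 0 cells did both keratin sums reach 1%, so no cell was lost to the second condition. They are called IRS cells below, and all other kept cells are the remaining cells.

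The IRS is the sleeve of epithelial cells that surrounds and moulds the growing hair shaft. It consists of the Henle layer, the Huxley layer and the IRS cuticle, which arise from the matrix of the hair bulb, keratinize earlier than the shaft and are shed before the hair emerges. Its intermediate filaments are built from the type II keratins *KRT71* to *KRT74* and the type I keratins *KRT25* to *KRT28*, of which *KRT26*, *KRT72* and *KRT73* are known from the IRS cuticle, and trichohyalin is citrullinated by peptidylarginine deiminases and cross-linked by transglutaminases as the layers harden.

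Scapular skin of healthy Tianzhu white yak (*Bos grunniens*) about 2 years old was digested with dispase. Hair follicles were then pulled out and digested with trypsin, as the paper describes for anagen and catagen. A 10x Genomics 3' library was made in each of anagen (growth), catagen (regression) and telogen (rest), 1 per stage, without any other treatment. The labels do not say which animal gave which library. With 1 library per stage there was no replicate, so no test between stages was possible, and stage, library and Cell Ranger version cannot be told apart. The title and stage label of the catagen library give its stage, but its protocol text speaks of anagen.

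The IRS cells held 2429542, 1553794 and 1665291 UMIs in anagen, catagen and telogen. The median IRS cell had 4484, 8538 and 13671.5 UMIs, against 5264, 3325.5 and 5569 in the remaining cells. IRS cells were thus shallower than the remaining cells in anagen and deeper in catagen and telogen. The deepest single IRS cells held 76161, 59451 and 145097 UMIs, so summed levels lean on a few deep cells. Levels are given as CPM, the UMIs of a gene summed over the cells of a class in 1 library and scaled to a common total, in the order anagen, catagen and telogen wherever 3 values follow each other. Where 95% intervals are given in parentheses, they cover counting error in single libraries only, and not the spread between animals. Those of ratios and levels treat UMIs as independent and leave out the spread between cells as well. Because the cells were picked by their own counts and there was 1 library per stage, differences from the remaining cells are descriptions without a test. Of all kept cells, 43, 40 and 48 barcodes recurred between pairs of libraries, and 0 of these were IRS cells in both. Barcodes of 2 anagen IRS cells recurred among catagen cells, that of 1 catagen IRS cell among telogen cells and that of 1 telogen IRS cell among catagen cells.

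The share of IRS cells among kept cells was 1.82% (1.59 to 2.07, exact Clopper-Pearson) in anagen, 1.23% (1.04 to 1.44) in catagen and 0.552% (0.438 to 0.686) in telogen. The telogen share was below the anagen share by 1.27 percentage points (Newcombe interval of telogen minus anagen -1.54 to -1.01) and below the catagen share by 0.675 points (-0.914 to -0.450 for telogen minus catagen). Catagen minus anagen was -0.592 points (-0.905 to -0.283). Among cells with at least 1000 genes the shares were 1.53%, 1.95% and 0.687%, and the catagen share was then the highest. With every cell thinned to 1500 UMIs they were 1.97%, 1.41% and 0.622%, and with the same minimum of UMIs in every library 1.82%, 1.51% and 0.588%, again with anagen the highest. Telogen had the lowest share in each case.

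The values that chose the cells were as follows. The 4 keratins made up a median of 2.38%, 2.73% and 2.87% of the UMIs of an IRS cell and up to 21.1%, 22.6% and 30.2%, against 0.0442%, 0.0293% and 0.0145% of all UMIs of the remaining cells. Just inside the threshold, 58, 30 and 19 cells had 1% to 1.5%, and just outside it 167, 99 and 43 cells had 0.5% to 1%. The threshold therefore cut through a continuous range of keratin shares and not through a gap. *KRT71* (ENSBGRG00000001131) had 16127, 19574 and 18472 CPM in IRS cells and 166, 87.4 and 53.1 in the remaining cells. *KRT25* (ENSBGRG00000016734) had 10869.5, 22104 and 16104 CPM against 113, 109 and 50.9. *KRT27* (ENSBGRG00000016581) had 23635, 22196 and 14887 CPM against 73.6, 53.1 and 18.7. *KRT28* (ENSBGRG00000016455) had 1893, 2828 and 2179 CPM against 89.7, 42.9 and 21.8. The hair cortex keratin *KRT85* had 155, 30.2 and 68.5 CPM in IRS cells and *KRT35* had 8.64, 0 and 3.002, with no *KRT35* UMI in catagen. The IRS cells together held 78.2%, 87.6% and 85.4% of all UMIs of the 4 keratins.

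Cells were thinned to 1500 UMIs each to compare shares of cells at 1 depth. This left 218, 128 and 66 IRS cells, and all 4 keratins were seen in 98 (45.0%), 65 (50.8%) and 43 (65.2%) cells. *KRT71* was seen in 99.1%, 99.2% and 98.5% of thinned IRS cells and *KRT28* in 54.6%, 74.2% and 77.3%. Endothelial cells, recognised by at least 3 UMIs of *PECAM1*, *CDH5*, *VWF* and *EMCN*, should lack these keratins and show how much free RNA the droplets carried. There were 64, 23 and 36 of them with a median of 3970.5, 2425 and 4455 UMIs, and the 64, 18 and 34 that could be thinned had a UMI of *KRT71* in 10.9%, 16.7% and 8.82% and of *KRT28* in 3.12%, 0% and 0%. Without thinning, *KRT28* was seen in 70.6%, 80.4% and 80% of IRS cells and in 6.25%, 4.35% and 2.78% of endothelial cells. A UMI of *KRT71* in a cell outside the rule was thus no sign of an IRS cell on its own.

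The make-up of the 4 keratins shifted with their total. Among IRS cells with 1 to 5%, 5 to 15% and at least 15% of UMIs from the 4 keratins, *KRT27* supplied 23.0%, 46.4% and 65.4% of their UMIs in anagen. The same shares were 14.7%, 31.1% and 47.9% in catagen and 15.9%, 28.5% and 57.8% in telogen. The shares of *KRT28* were 10.5%, 0.869% and 0.0481% over the same ranges in anagen, 18.0%, 1.63% and 0.139% in catagen and 9.42%, 1.66% and 0.0207% in telogen. The top range held only 6, 8 and 2 cells. In each library the part of *KRT27* was thus larger and that of *KRT28* smaller the higher the range. The ranges are sums of the same 4 keratins that chose the cells. The shift is therefore partly built in and is given as a description. The comparison runs along the range for 1 gene at a time, because the yield of 3' UMIs per transcript can differ between genes.

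**Figure D1:**
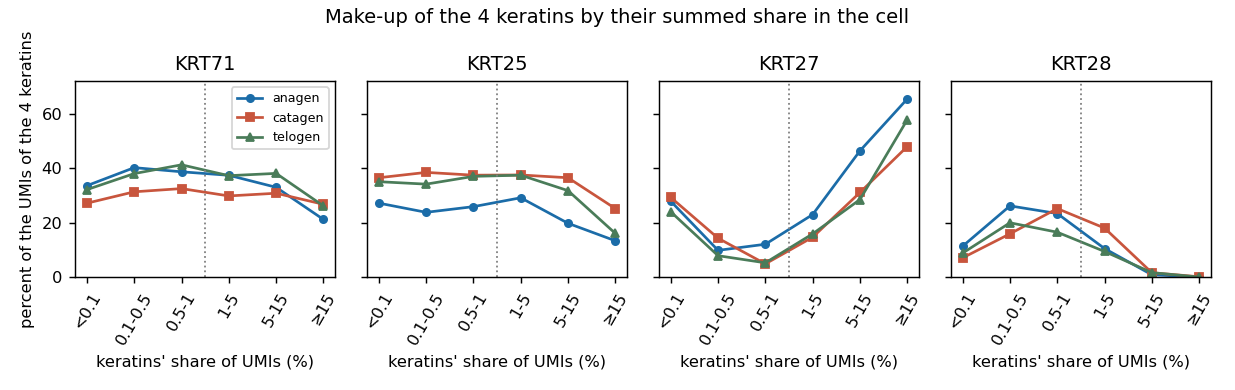
Percent of the UMIs of *KRT71*, *KRT25*, *KRT27* and *KRT28* that each gene supplied (y axis), against the summed share of the 4 keratins in the cell (x axis, percent of UMIs, 6 ranges), with 1 line per library. The dotted line is the 1% threshold. *KRT27* supplied 65.4%, 47.9% and 57.8% in the highest range, and *KRT28* 0.0481%, 0.139% and 0.0207%.

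The label was set beside IRS keratins that the rule did not use. *KRT73* had 172, 248 and 153 CPM in IRS cells against 21.7, 6.62 and 4.51 in the remaining cells, ratios of 7.94 (7.12 to 8.84), 37.4 (32.2 to 43.5) and 33.9 (29.02 to 39.7). *KRT72* had 17.3, 74.7 and 13.2 CPM against 0.311, 0.3401 and 0.0983. *KRT26* had 29.2, 322 and 27.02 CPM against 0.274, 0.8203 and 0.0393. All 3 cuticle keratins were thus at least 4-fold higher in IRS cells in every library. *KRT72* and *KRT26*, and *KRT73* in catagen and telogen, reached the 10 CPM needed for a call only through the IRS cells. Their ratios are therefore a description and no test of the label. UMIs of *KRT73* were found in 59, 43 and 27 IRS cells, of *KRT72* in 13, 15 and 10 and of *KRT26* in 19, 25 and 8. At these levels and depths a cell without a UMI may still express the gene. A single cell held 36.7% of the catagen *KRT26* UMIs and 66.7% of those in telogen. *TGM1*, the transglutaminase that cross-links the cornified envelope, had 78.2, 74.7 and 49.8 CPM against 12.5, 11.5 and 12.2, ratios of 6.26 (5.33 to 7.32), 6.501 (5.28 to 7.95) and 4.08 (3.23 to 5.098). Of the other IRS structural genes, counted below, *S100A4* was at least 2-fold lower in all 3 libraries and *CTSV* in anagen and telogen. *GATA3*, a transcription factor needed for IRS formation, had 51.04, 116 and 79.3 CPM against 30.98, 51.5 and 20.5, ratios of 1.65 (1.36 to 1.97), 2.25 (1.92 to 2.62) and 3.86 (3.21 to 4.604). *KRT74*, trichohyalin, *PADI3* and *TGM3* had no row under these symbols and were not analysed here. In the RefSeq annotation of yak (Bosgru_T2T1.0), *KRT72*, *KRT74*, *KRT71* and *KRT5* are neighbours, as are *KRT26* and *KRT25*, and *KRT28* lies beside *KRT10*.

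Across all genes with at least 10 CPM in either class, 75 of 5771 (1.3%), 130 of 6190 (2.1%) and 110 of 5532 (1.99%) were at least 4-fold higher in IRS cells, and 472 (8.18%), 607 (9.81%) and 525 (9.49%) at least 4-fold lower. 49 genes were at least 4-fold higher in all 3 libraries, of 177 higher in any, and 45 of them lay outside the rule, 35 with a symbol. 263 genes were at least 4-fold lower in all 3, of 866 lower in any. These shares are the background for the members named next, and since the rule drew on the same cells nothing further is read from them.

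The highest gene with a symbol outside the rule was *PMP2* (ENSBGRG00000019143), which encodes a fatty acid binding protein first known from myelin. *PMP2* had 13676, 16202 and 15364 CPM in IRS cells and 113, 67.7 and 78.6 in the remaining cells, ratios of 121 (118 to 124), 239 (231 to 248) and 195 (191 to 200.4). After thinning, 84.9%, 75.8% and 77.3% of IRS cells had a *PMP2* UMI, against 11.5%, 6.597% and 6.23% of the remaining cells and 10.9%, 0% and 2.94% of endothelial cells. Without thinning the shares were 91.7%, 83.1% and 85% of IRS cells and 26.6%, 4.35% and 13.9% of endothelial cells. The median IRS cell gave 0.475%, 0.305% and 0.338% of its UMIs to *PMP2*, and the highest 9.99%, 11.9% and 11.9%. *PMP2* was therefore spread over most IRS cells in all 3 libraries but at very unequal levels.

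A gene without a symbol, ENSBGRG00000003029, was more abundant still relative to the remaining cells, with 59126, 88377 and 28527 CPM in IRS cells and 274, 159.7 and 61.6 elsewhere. It took 36.0%, 35.1% and 12.7% of the UMIs of the IRS cell in which it was highest. ENSBGRG00000016429, also without a symbol, had 1381, 695 and 950.0 CPM against 116, 63.8 and 75.9.

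From the genes outside the rule that carry a symbol and reached 50 CPM in the IRS cells of every library, the 10 highest by the lowest of the 3 ratios were *PMP2*, *PADI1*, *SERPINB12*, *CTSH*, *GPX3*, *LPAR6*, *FGF2*, *NKD1*, *MICAL1* and *KRT73*. *PADI1*, *SERPINB12*, *GPX3*, *LPAR6* and *NKD1* lay below 10 CPM in the remaining cells of every library, as did *CTSH* and *FGF2* in telogen. There they reached the level for a call only through the IRS cells, so their ratios are a description. *PADI1*, a peptidylarginine deiminase that citrullinates keratins and related proteins, had 319.8, 501 and 291 CPM in IRS cells and 5.71, 3.08 and 1.93 in the remaining cells, ratios of 56.01 (49.8 to 62.998), 163 (137 to 194) and 151 (128 to 179). After thinning it was seen in 30.7%, 37.5% and 30.3% of IRS cells and 0%, 0% and 0% of endothelial cells. At the *PADI1* level of the remaining cells, the 64, 18 and 34 thinned endothelial cells would seldom show a UMI. Their zeros therefore carry little weight. *CTSH*, a lysosomal cathepsin, had 1019, 928 and 719 CPM against 40.9, 26.7 and 7.39, ratios of 24.9 (23.6 to 26.3), 34.8 (32.3 to 37.5) and 97.3 (88.7 to 107). *SERPINB12*, a serine protease inhibitor, had 98.4, 178 and 261 CPM against 1.47, 5.74 and 2.67. *GPX3*, a secreted glutathione peroxidase, had 177, 127 and 114 CPM against 7.75, 3.601 and 3.94, with 46.8% of the telogen UMIs in 1 cell.

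*LPAR6*, the lysophosphatidic acid receptor whose loss causes woolly hair in humans, had 99.6, 129 and 161 CPM in IRS cells against 5.98, 6.22 and 6.08, ratios of 16.6 (14.2 to 19.5), 20.8 (17.3 to 24.9) and 26.5 (22.8 to 30.6). *FGF2*, a fibroblast growth factor, had 277, 192 and 269 CPM against 19.2, 11.6 and 8.67, ratios of 14.4 (13.2 to 15.8), 16.5 (14.3 to 18.97) and 31.04 (27.6 to 34.8). *NKD1*, an inhibitor of canonical WNT signalling, had 70.4, 89.5 and 53.4 CPM against 5.64, 3.34 and 2.21. In unthinned IRS cells *LPAR6* was seen in 42.2%, 48.6% and 63.8%, *FGF2* in 49.1%, 56.1% and 65% and *NKD1* in 22.02%, 22.97% and 38.8%. The order of these shares follows that of the median depths, and a cell without a UMI may still express the gene. After thinning the shares were 15.6%, 20.3% and 15.2% for *LPAR6*. They were 21.6% (16.3 to 27.6), 26.6% (19.1 to 35.1) and 37.9% (26.2 to 50.7) for *FGF2*. For *NKD1* they were 5.96% (3.21 to 9.98), 10.2% (5.52 to 16.7) and 12.1% (5.38 to 22.5). At equal depth the same order was thus not seen for *LPAR6*. It was seen for *FGF2* and *NKD1*, but with overlapping intervals in the 3 libraries. *MICAL1*, an enzyme that oxidizes and disassembles actin filaments, had 372, 210.5 and 256 CPM against 26.7, 22.2 and 28.1.

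The other genes with a symbol that were at least 4-fold higher in all 3 libraries were *SLC9A2*, *TGM7*, *PRR9*, *TESC*, *HMX1*, *KIAA1324*, *GPR1*, *C1orf194*, *SLC39A8*, *PRKCE*, *CYP2U1*, *CSDC2*, *PLXNA2*, *ENDOU*, *RDH12*, *GSDMA*, *TMPRSS11E*, *PCDH7*, *LYPD6*, *FDPS*, *GOLGA7B*, *PRSS53* and *DLX3*. They include *TGM7*, of the transglutaminase family, *FDPS*, which makes farnesyl diphosphate in the mevalonate pathway, and the homeobox genes *HMX1* and *DLX3*.

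**Figure D2:**
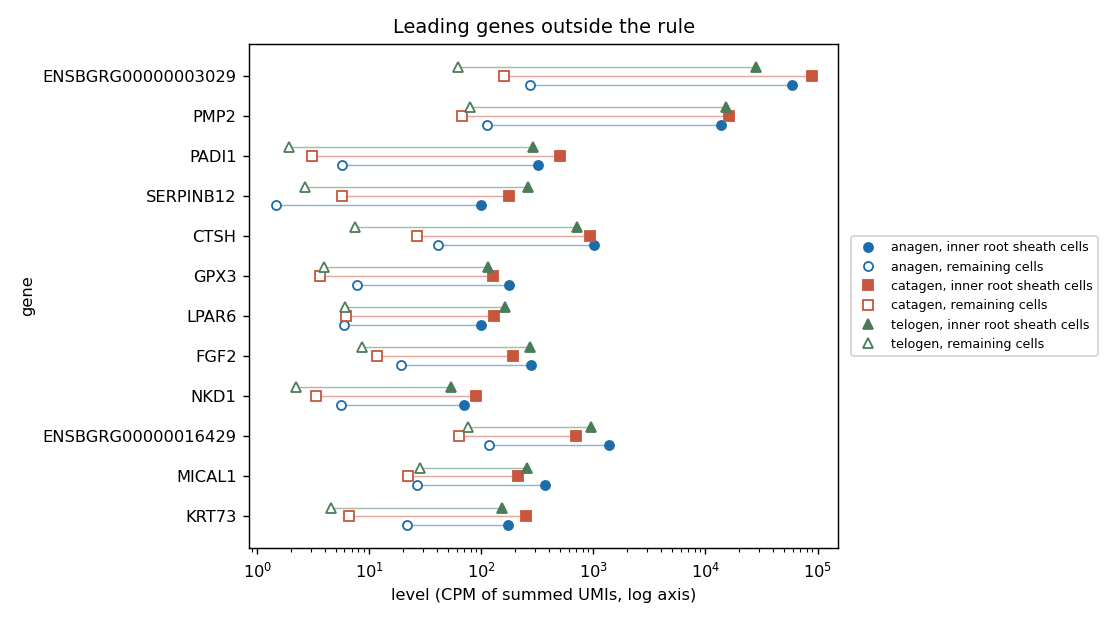
Level in CPM of summed UMIs (x axis, log scale) of the 10 highest genes with a symbol and 2 without, all with at least 50 CPM in the IRS cells of every library (y axis), in IRS cells (filled) and remaining cells (open), with 1 colour and shape per library. The genes were picked for a high ratio of IRS over remaining cells, so the distance of at least 4-fold between filled and open points is no test. The filled points of the 3 libraries lie close together for *PMP2*, at 13676, 16202 and 15364 CPM.

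Hair cortex cells, KRT75 cells and suprabasal cells were the nearest neighbours compared. There were 230, 86 and 65 hair cortex cells (*KRT85* and *KRT35* at 1% of UMIs or more), 55, 90 and 41 KRT75 cells (*KRT75*, a companion layer keratin, at 1% or more) and 212, 360 and 587 suprabasal cells (*KRT1* and *KRT10* at 5% or more). *PMP2* had 40.1, 26.5 and 55.9 CPM in hair cortex cells, 239.6, 141 and 119.7 in KRT75 cells and 187, 67.4 and 304 in suprabasal cells. *CTSH* had 11.3, 4.19 and 2.99, 106, 76.3 and 45.5 and 6.37, 13.7 and 1.88 CPM in the same order of classes. Both were thus far below their IRS levels in each neighbour. *MICAL1* and *DLX3* were shared with the cortex to a larger extent. *MICAL1* had 186, 65.6 and 132 CPM in hair cortex cells, and *DLX3* had 341, 296 and 164 there against 549.9, 547 and 552 in IRS cells. *FOXN1*, the factor mutated in the nude mouse, was higher in hair cortex cells at 224, 233 and 249.5 CPM than in IRS cells at 69.1, 84.3 and 76.9. *SELENBP1* had 1530.4, 2689 and 1545 CPM in hair cortex cells against 95.1, 2.57 and 1.201 in IRS cells. *NKD1* had 37.7, 31.8 and 4.79 CPM in KRT75 cells and 26.4, 13.95 and 14.97 in hair cortex cells.

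The 8 lowest genes carrying a symbol, from those that reached 50 CPM in the remaining cells of every library, were *SPARC*, *ITGA6*, *DST*, *SFRP1*, *KRT1*, *KRT5*, *CDH13* and *TENT5A*. *SPARC*, a matrix glycoprotein, had 64.6, 38.6 and 36.6 CPM in IRS cells and 662, 616 and 928 in the remaining cells, 10.2 (8.76 to 12.1), 15.9 (12.4 to 20.9) and 25.3 (19.7 to 33.1) times lower. *ITGA6*, the integrin subunit of hemidesmosomes, was 10.6 (7.41 to 15.9), 26.8 (14.98 to 53.8) and 26.6 (15.2 to 51.5) times lower, and *DST*, a hemidesmosomal linker, 9.37 (7.602 to 11.7), 14.8 (11.7 to 18.9) and 39.9 (24.2 to 71.3) times lower. The secreted WNT antagonist *SFRP1* had 35.8, 26.4 and 8.41 CPM against 338, 399 and 259. The epidermal keratin *KRT1* had 505, 35.4 and 255 CPM against 4717, 4553 and 6282, and *KRT5*, the keratin of basal cells, 95.5, 59.9 and 55.2 against 849, 1490.2 and 1548. *KRT1* was lowest in the catagen IRS cells. *KRT14* was seen in 66.97%, 20.3% and 42.4% of thinned IRS cells and in 67.2%, 50% and 73.5% of endothelial cells, so a *KRT14* UMI in an IRS cell was no more frequent than in cells that should lack it. In anagen *KRT14* took a median of 0.0799% and up to 2.01% of the UMIs of an IRS cell.

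All list counts below are of genes at least 2-fold higher or lower in IRS cells, among those list genes that reached 10 CPM in IRS or remaining cells. Over all genes 259 (4.49%), 411 (6.64%) and 425 (7.68%) were 2-fold higher and 1290 (22.4%), 1454 (23.5%) and 1201 (21.7%) lower, with median log2 ratios of -0.26, -0.23 and -0.15 after 1 CPM was added. Among genes of the companion layer and outer root sheath, 10 of 10, 10 of 10 and 8 of 9 were lower, with medians of -2.95, -4.23 and -4.64. *SOX9*, a stem cell factor of the outer root sheath, had 80.3, 27.7 and 14.4 CPM against 635, 544 and 397, and *KRT17* had 667, 204 and 501 against 5120.4, 3762 and 6469. *KRT75* was among the lower genes in anagen and catagen, while its telogen value of 139.9 CPM lay close to the 169 CPM of the remaining cells with 72.1% of the UMIs in 1 cell. Of the hair cortex and cuticle list 1 of 2, 1 of 2 and 2 of 2 were lower.

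Of the epidermal differentiation genes, 7 of 11, 7 of 10 and 9 of 11 were lower and 1 of 11, 1 of 10 and 0 of 11 higher. *KRT10* had 477, 28.96 and 145 CPM against 3824, 5069 and 4859. *KLK7*, a kallikrein of desquamation, was higher than in the remaining cells in anagen and catagen and lower in telogen, at 574, 443 and 337 CPM against 383, 189 and 846. The cornified layer gene *SBSN* had 2409.5, 2477 and 1026 CPM against 2702, 2534 and 1873, ratios near 1 in anagen and catagen. Suprabasal genes were thus not uniformly low in IRS cells.

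Among 26 transcription factors of follicle differentiation with a row, 2 of 21, 5 of 21 and 7 of 19 were higher and 11 of 21, 7 of 21 and 7 of 19 lower. *DLX3* was 4.25 (4.01 to 4.495), 8.64 (7.9999 to 9.32) and 12.1 (11.2 to 12.97) times higher, with 549.9, 547 and 552 CPM in IRS cells against 129.5, 63.3 and 45.7 in the remaining cells. Its level was thus nearly the same in the IRS cells of all 3 libraries. *FOXN1* had ratios of 3.25 (2.76 to 3.81), 4.29 (3.54 to 5.15) and 6.92 (5.72 to 8.31). *TP63*, *BARX2*, *KLF5*, *EHF*, *IRX5* and *NFIB* were lower in all 3 libraries, *NFIB* with 142, 139 and 83.5 CPM against 309, 487 and 208.

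Signalling pathways were compared with the shares over all genes. Of the WNT genes, 3 of 14, 3 of 16 and 5 of 13 were higher and 6 of 14, 10 of 16 and 6 of 13 lower, in each case larger shares than over all genes. The receptor *FZD10* (90.6, 99.1 and 118 CPM against 24.2, 24.1 and 28.5) and the inhibitors *NKD1* and *NKD2* were higher in every library, and *SFRP1*, *WNT6*, *WNT10A* and *TCF7L2* lower. *NKD2* had 27.2, 57.9 and 37.2 CPM against 9.33, 7.54 and 3.54. Of the BMP genes, 1 of 10, 2 of 12 and 1 of 10 were higher and 5 of 10, 5 of 12 and 5 of 10 lower. The ligand *BMP4* was higher in each library, at 58.04, 167 and 53.4 CPM against 19.7, 20.97 and 5.94, while *BMP2*, the inhibitor *FST*, *ID4* and *SMAD1* were lower. The BMP target *ID1* had 439, 289 and 348 CPM against 778, 499.7 and 489.9. Of the NOTCH genes 0 were higher in any library and 3 of 6, 3 of 6 and 2 of 4 lower, with the ligand *JAG2* lower in all 3. The hedgehog list had 1, 2 and 0 genes at this level and gave 1, 1 and 0 lower genes.

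Desmosomal cadherins lay on both sides, *DSC1* being at least 2-fold higher in anagen and catagen and *DSG1* in anagen alone. *DSC1*, a desmocollin of differentiated layers, had 251, 362 and 152 CPM in IRS cells against 62.2, 130.5 and 78.7, ratios of 4.03 (3.697 to 4.38), 2.77 (2.54 to 3.02) and 1.93 (1.696 to 2.19). *DSG1* had 848, 1090.2 and 810.1 CPM against 403, 753 and 562. *DSC2* was lower, with 156, 191 and 121 against 343, 549.8 and 394 CPM, and *DSG2* and *DSG3* were also at least 2-fold lower in all 3 libraries. In the whole desmosome and junction list 2 of 18, 1 of 18 and 1 of 18 were higher and 4 of 18, 4 of 18 and 3 of 18 lower. The IRS structural list gave 2 of 5, 3 of 6 and 2 of 5 higher and 2 of 5, 1 of 6 and 2 of 5 lower, with *TGM1* and *PADI1* higher in all 3 libraries and *S100A4* lower.

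Of the lipid genes, 3 of 15, 5 of 16 and 5 of 15 were higher and 5 of 15, 4 of 16 and 4 of 15 lower. *ELOVL3*, an elongase of very long chain fatty acids, had 309.5, 548 and 156 CPM against 102, 7.86 and 57.8 and was found in 52, 32 and 13 IRS cells. *ELOVL4* had 177, 155 and 128 against 62.9, 70.8 and 64.2 CPM. *HMGCS1*, an early enzyme of the mevalonate pathway, had 61.7, 72.1 and 61.9 against 25.6, 19.4 and 11.4, ratios of 2.42 (2.03 to 2.85), 3.71 (3.02 to 4.52) and 5.44 (4.403 to 6.66). *FABP7*, *PLIN2* and *DGAT2* were lower in all 3 libraries.

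Genes of the cell cycle were low in the sums of IRS cells. Of the DNA replication genes 13 of 13, 9 of 10 and 10 of 12 were lower and of the mitosis genes 12 of 14, 4 of 11 and 7 of 12, and 0 were higher. *CENPF*, a kinetochore protein, had 71.2, 114 and 72.7 CPM against 289, 273 and 166. *TOP2A*, the topoisomerase of dividing cells, had 22.2, 66.9 and 42.6 CPM against 145, 137 and 102, with 51% and 56.3% of the catagen and telogen UMIs in 1 cell. After thinning, the catagen log2 ratios were 0.19 for *CENPF* and 0.68 for *TOP2A*, while the direction stayed lower without the deepest 5% of cells and by the mean over cells. Of the immediate early genes, which respond within minutes to stress and dissociation, 12 of 16, 11 of 16 and 9 of 16 were lower and 0 higher, with *FOS* at 218, 295 and 202 CPM against 792, 1687 and 775. Of 9 chaperone genes 0 of 9, 1 of 9 and 0 of 9 were higher and 1 of 9, 1 of 9 and 1 of 9 lower. *HSPA8* had 1599.9, 2292 and 1289 CPM against 1037, 935 and 888. Of the S100 genes 1 of 9, 2 of 9 and 2 of 8 were higher and 5 of 9, 4 of 9 and 6 of 8 lower, with *S100A16* higher in all 3 libraries at 1295, 773 and 1526 CPM against 555, 370.1 and 649. *S100A8* counted as higher in catagen and telogen, but its telogen log2 ratio was -1.14 without the 1 cell that held 82.2% of the UMIs. Of the apoptosis genes 0 were higher and 2 of 6, 1 of 5 and 2 of 5 lower.

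**Figure D3:**
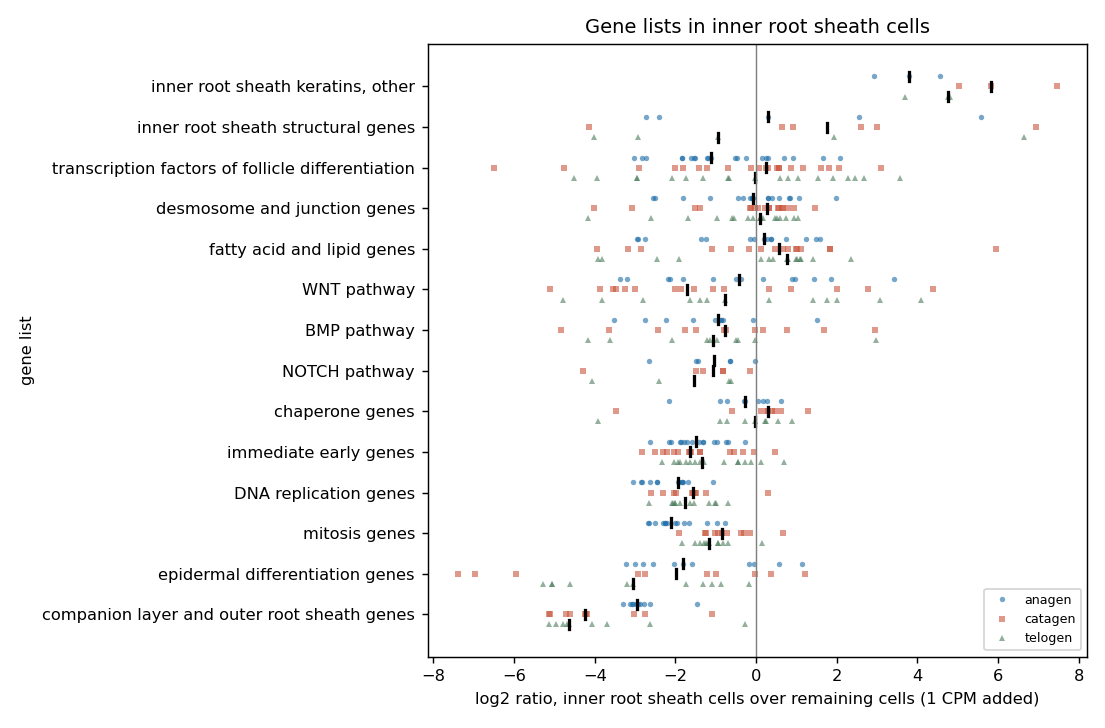
Log2 ratio of IRS cells over remaining cells with 1 CPM added (x axis) for each gene with at least 10 CPM in either class in 14 gene lists (y axis). Colours and shapes are libraries, and black bars are medians. The IRS keratins outside the rule lie to the right with medians of 3.80, 5.82 and 4.75, and the companion layer and outer root sheath genes to the left with medians of -2.95, -4.23 and -4.64.

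Markers of other skin cells were low apart from the melanocyte list. The 7 endothelial markers summed to 3.29, 1.29 and 0 CPM in IRS cells against 13.9, 6.78 and 8.76 in the remaining cells, and *CDH5*, *CLDN5* and *ESAM* were at 0 in all 3 libraries. *CLDN5* and *ESAM* were rarely seen in endothelial cells either, at 6.25%, 4.35% and 2.78% and 0%, 4.35% and 2.78% without thinning, so their zeros carry little weight. The 9 immune markers summed to 18.5, 7.72 and 13.2 CPM against 63.3, 169.5 and 118, with *PTPRC*, *LAPTM5*, *CD52* and *CD3D* at 0, and *CD74* as the most abundant in anagen and catagen and *AIF1* in telogen. The 12 mesenchymal markers summed to 48.98, 46.98 and 128 CPM against 292, 417 and 269, most of it *TAGLN* at 39.9, 35.4 and 126 CPM, with *COL1A2*, *COL3A1* and *LUM* at 0. The 5 melanocyte markers summed to 8.64, 50.2 and 5.404 CPM against 8.24, 32.6 and 8.46, with *MLANA* and *TYRP1* at 0. *MITF* supplied most of that sum, at 6.997, 47.6 and 3.002 CPM against 5.42, 15.3 and 5.16, and was the 1 marker of these 4 lists that was 2-fold higher in IRS cells, in catagen alone.

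Within the IRS cells, levels were compared between cells with at least 5% of UMIs from the 4 keratins (40, 46 and 20 cells) and cells with 1 to 5% (178, 102 and 60 cells), with CPM taken over totals without the 6 genes of the rule. The ranges are parts of the measure that chose the cells and are not cell types. At the high end 244 of 5216 genes (4.68%), 392 of 5613 (6.98%) and 321 of 5108 (6.28%) were at least 2-fold higher, and 1436 (27.5%), 1769 (31.5%) and 747 (14.6%) lower, 89 higher and 215 lower in all 3 libraries. The median over all genes was -0.53, -0.61 and -0.19 on the log2 scale, so a value near -0.5 was ordinary in anagen and catagen. ENSBGRG00000003029 alone took 137652, 190085 and 49764 CPM of the cells at the high end against 34048, 24168 and 21259 in cells with 1 to 5%, which lowers the CPM of all other genes there.

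*PMP2* had 5765, 5125 and 9008 CPM in cells with 1 to 5% and 37436, 33907 and 32250.0 in cells with at least 5%, 6.49 (6.34 to 6.65), 6.62 (6.401 to 6.84) and 3.58 (3.49 to 3.67) times higher. *GPX3* had 23.9, 5.997 and 28.4 and 620.5, 313 and 325 CPM, and *NKD1* 16.8, 26.4 and 35.8 and 227, 189.8 and 102. These leading genes were thus higher in the cells richest in the keratins. *CTSH* (1.87 (1.73 to 2.03), 1.99 (1.79 to 2.21) and 1.39 (1.24 to 1.57)) and *PADI1* (2.06 (1.79 to 2.38), 2.82 (2.42 to 3.29) and 1.75 (1.46 to 2.11)) differed less. *FGF2* had 322, 242 and 324 CPM in the lower and 211, 156 and 194 in the upper range, ratios close to the median over all genes in anagen and catagen. *DLX3* had 572, 497 and 536 CPM in the lower and 603, 707 and 687 in the upper range.

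Several genes of terminal differentiation were also higher in the upper range. *SPINK5*, an inhibitor of kallikreins, had 309, 230.3 and 182 CPM in cells with 1 to 5% and 2031, 1719.6 and 1107 in cells with at least 5%, 6.58 (5.94 to 7.302), 7.47 (6.397 to 8.75) and 6.09 (5.17 to 7.21) times higher. *KLK7* had 267, 33.6 and 162 and 1504, 1072 and 788 CPM, and *SBSN* 1639, 1166 and 709.9 and 4942, 4666 and 1911. Corneodesmosin, *CDSN*, had 0, 1.199 and 0 CPM in cells with 1 to 5% and 34.9, 127 and 12.3 in cells with at least 5%. It reached 10 CPM only through the upper range, and 208 of 218, 136 of 148 and 77 of 80 IRS cells had no *CDSN* UMI. The lipid transporter gene *ABCA12* was 6.63 (3.76 to 12.2), 14.1 (7.35 to 30.2) and 4.46 (1.55 to 14.5) times higher and *ELOVL3* 7.37 (6.26 to 8.71), 19.6 (14.9 to 26.2) and 143 (55.1 to 528) times. In the epidermal differentiation list 5 of 8, 5 of 8 and 4 of 8 genes were at least 2-fold higher at the high end and 2 of 8, 1 of 8 and 0 of 8 lower, with medians of 1.67, 1.27 and 1.08. *KRT1* was not among them, with 627, 49.2 and 264 and 286, 22.7 and 280.3 CPM. *SLC40A1*, the iron exporter ferroportin, had 5.98, 32.4 and 1.83 and 217, 861 and 135 CPM, although 1 cell held 94.1% of its telogen UMIs. The cuticle keratin *KRT26* had 11.4, 179 and 5.503 and 82.5, 571 and 79.8 CPM, but without the cell richest in it the catagen ratio was 1.64 and the telogen ratio 3.58. Without the richest cell the telogen ratio was also 3.12 for *SPINK5*, 1.99 for *ABCA12*, 5.39 for *GPX3*, 3.14 for *KLK7* and 2.30 for *SLC40A1*, all above 1, and it was 2.66 for *KRT1*.

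Mitosis genes and *KRT73* were lower in the upper range. *CENPF* had 102, 206 and 111 CPM in cells with 1 to 5% and 4.76, 8.11 and 0 in cells with at least 5%. *TOP2A* had 32.3, 122 and 64.2 and 0, 3.24 and 2.05 CPM. Of the mitosis genes 4 of 6, 9 of 10 and 8 of 9 were at least 2-fold lower at the high end, with medians of -3.34, -3.72 and -3.69, while *KIF23* was higher in anagen and catagen. Of the DNA replication genes 2 of 3, 2 of 5 and 2 of 4 were lower and 0 higher. The cells richest in the keratins were thus nearly without UMIs of *CENPF* and *TOP2A*. *KRT73* had 242, 441 and 222 CPM in the lower and 20.6, 27.6 and 26.6 in the upper range, 11.7 (6.79 to 22.3), 16.01 (9.86 to 27.8) and 8.35 (4.79 to 15.9) times lower. *NKD2* had 38.3, 97.2 and 54.1 and 3.17, 14.6 and 6.14 CPM. *KRT72*, the third cuticle keratin, had 22.7, 100.8 and 19.3 and 6.35, 51.9 and 2.05 CPM. *KRT73* and *NKD2* thus had the opposite order of *KRT26* and *NKD1*. *KRT72* was also lower in the upper range, but below 2-fold in catagen. The catagen median over all genes was -0.61 on the log2 scale, and *KRT72* had UMIs in only 13, 15 and 10 IRS cells. *GATA3* had 66.4, 172 and 105 and 20.6, 60.02 and 36.8 CPM, and *ID1* 542, 452 and 469 and 254, 117 and 141. *DSC2* had 213, 271 and 166 CPM in the lower and 36.5, 115 and 40.9 in the upper range, and *DSC1* 187, 234 and 124 and 471, 595 and 241. *DSC1* and *DSC2* thus lay on opposite sides in all 3 libraries, *DSC1* below 2-fold in telogen.

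**Figure D4:**
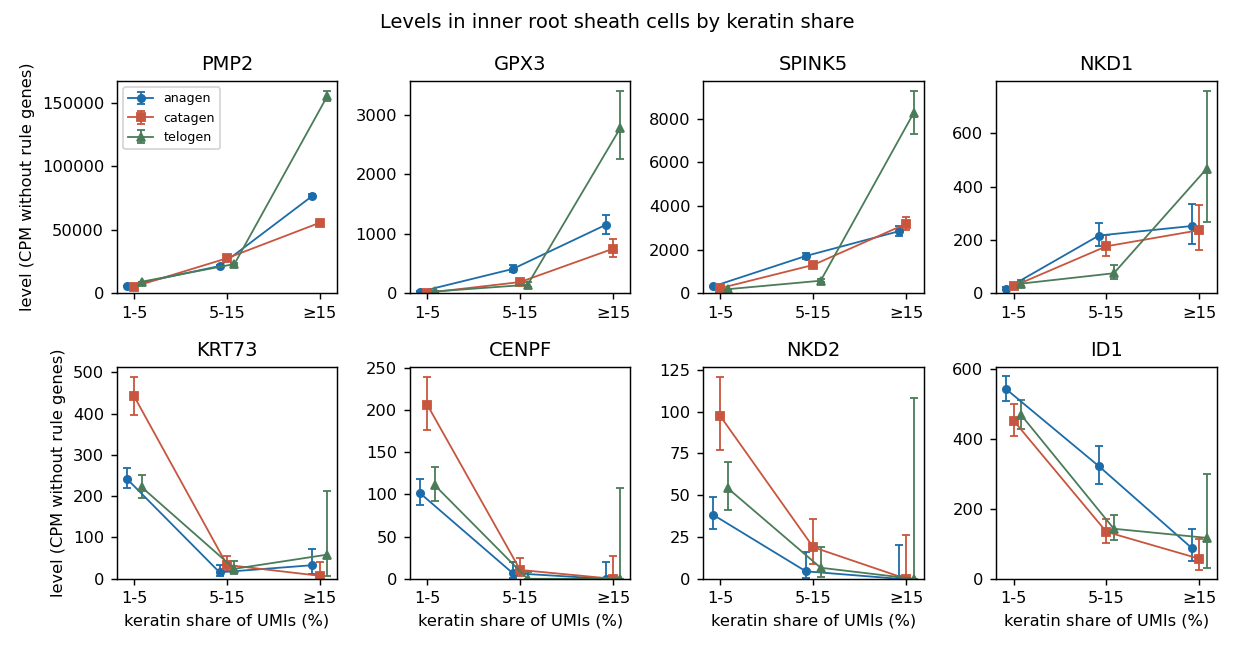
Level in CPM over totals without the rule's genes (y axis, from 0) of 8 genes in IRS cells with 1 to 5%, 5 to 15% and at least 15% of UMIs from the 4 keratins (x axis), with 1 line per library and bars for 95% Poisson intervals. The top range holds 6, 8 and 2 cells. *PMP2*, *GPX3*, *SPINK5* and *NKD1* are lowest at 1 to 5%, and *KRT73*, *CENPF*, *NKD2* and *ID1* are highest at 1 to 5%.

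Across 4348 genes outside the rule that carry a symbol and reached 10 CPM in the IRS cells of any library, the highest correlations over all kept cells with the summed 4 keratins, on the log scale of CPM per cell, were those of *CTSH*, *PADI1*, *GOLGA7B*, *FGF2* and *KRT73*, ranked by the lowest of 3 Pearson coefficients. Most of these cells lie outside the rule, and within the IRS cells *KRT73* had the opposite order, as given above. For *CTSH* r was 0.27, 0.17 and 0.15, and for *KRT73* it was 0.23, 0.15 and 0.13 over 11987, 12062 and 14502 cells. The points share library and depth, the counts per cell are sparse, and correlations of this size are given as a description.

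Between stages, the IRS cells were compared by the same sums. In catagen over anagen 336 of 5247 genes (6.4%) were at least 2-fold higher and 195 (3.72%) lower, against 3.85% and 3.31% in the remaining cells. With median-of-ratios scaling the balance turned, at 244 higher and 296 lower in IRS cells. In telogen over anagen 152 of 4952 (3.07%) were higher and 302 (6.1%) lower, against 2.68% and 7.23%. In telogen over catagen 328 of 5216 (6.29%) were higher and 668 (12.8%) lower, against 3.77% and 10.7%. Here median-of-ratios scaling gave 507 higher and 465 lower in IRS cells, and a keratin threshold of 2% gave 572 and 584. The 3 comparisons share libraries. In all 3 the share of higher genes lay above that of the remaining cells, whose sums rest on many more UMIs. The median log2 ratio over genes also differed between the classes. In the same order of comparisons it was 0.14, -0.07 and -0.16 in IRS cells and 0.27, -0.26 and -0.51 in the remaining cells. The rule's keratins, whose sum was at least 1% of UMIs in every cell by the choice of cells, are given as a description. They lay within 2-fold apart from *KRT25*, which had a log2 ratio of 1.02 (1.001 to 1.05) in catagen over anagen. *PMP2* had 0.24 (0.22 to 0.27) in that comparison and 0.17 (0.14 to 0.19) in telogen over anagen.

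Among the genes highest in catagen IRS cells relative to anagen, *SLC40A1* had 60.5, 359 and 40.8 CPM, a log2 ratio of 2.57 (2.305 to 2.84) against -0.63 in the remaining cells. *KRT23*, a type I keratin, had 49.4, 368 and 42.6 CPM and a log2 ratio of 2.898 (2.61 to 3.19). *KRT26* had a log2 ratio of 3.46 (3.103 to 3.84), and *CTSV*, a cathepsin of the epidermis and hair follicle, 4.95 (3.68 to 6.61) on 5 anagen UMIs. *SLC40A1*, *KRT23* and *KRT26* were also higher in the upper keratin range. 1 cell held 30.1%, 37.8%, 36.7% and 51.5% of the catagen UMIs of *SLC40A1*, *KRT23*, *KRT26* and *CTSV*. *CCHCR1* had 99.2, 725 and 14.4 CPM, with 72.5% of the catagen UMIs in 1 cell.

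Of genes with at least 50 CPM in anagen or catagen IRS cells, the 5 lowest in catagen relative to anagen were all lower in IRS cells than in the remaining cells of every library. *KRT1* had a log2 ratio of -3.84 (-4.25 to -3.45) and *KRT10* -4.04 (-4.51 to -3.61), against -0.05 and 0.41 in the remaining cells. *S100A7*, an antimicrobial S100 protein, had 568, 10.3 and 217 CPM in IRS cells and 4304, 196 and 2903 in the remaining cells, and so was low throughout the catagen library. The chemokine *CCL20* had 96.7, 6.44 and 9.01 CPM, and *SELENBP1* 95.1, 2.57 and 1.201. 1 cell held 52.4% of the anagen *S100A7* UMIs in IRS cells. After thinning, *KRT1* was seen in 33.03%, 5.47% and 18.2% of IRS cells and 46.9%, 11.1% and 47.1% of endothelial cells, and *KRT10* in 35.8%, 12.5% and 19.7% and 37.5%, 38.9% and 38.2%. In anagen *S100A7* was seen in 35.8% of IRS and 48.4% of endothelial cells, *CCL20* in 5.505% and 14.1% and *SELENBP1* in 12.8% and 20.3%. All 5 genes were thus seen no more often in anagen IRS cells than in endothelial cells of the same library. Single anagen IRS cells gave up to 0.910% of their UMIs to *KRT1*, 1.13% to *KRT10*, 2.13% to *S100A7*, 1.52% to *CCL20* and 0.324% to *SELENBP1*, so the sums lean on a few cells with high levels.

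In telogen, *TIPARP*, an ADP-ribosyltransferase, had 94.3, 58.6 and 17.4 CPM in IRS cells and 458, 261 and 110.4 in the remaining cells, and the orphan receptor *NR4A2* 48.6, 61.1 and 4.804 and 216, 258 and 35.4. Both were thus lowest in telogen inside and outside the IRS. The tetraspanin *TSPAN5* had 16.5, 54.1 and 3.002 CPM in IRS cells and 5.71, 6.76 and 4.13 outside, and *LRRC15* 9.06, 53.4 and 1.801 with 3 UMIs in telogen. The highest ratios in telogen over the nearer library, among genes with at least 50 CPM in any of the 3, were small. *TOMM7*, a subunit of the mitochondrial import complex, had 31.3, 34.1 and 79.3 CPM, *ENY2* 23.5, 25.1 and 60.05, *TPD52L1* 22.2, 15.4 and 51.6 and *TAGLN* 39.9, 35.4 and 126. Thinning each cell to 1500 UMIs turned the telogen over catagen log2 ratio of *TOMM7* to -0.37 and of *ENY2* to -0.37. After thinning, *TAGLN* was seen in 5.96%, 7.03% and 7.58% of IRS cells, against 22.9%, 16.9% and 42.5% without thinning. *TPD52L1* was seen in 4.59%, 1.56% and 7.58%, against 19.3%, 14.2% and 43.8%. *KRT75* followed 1 cell, as given above.

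**Figure D5:**
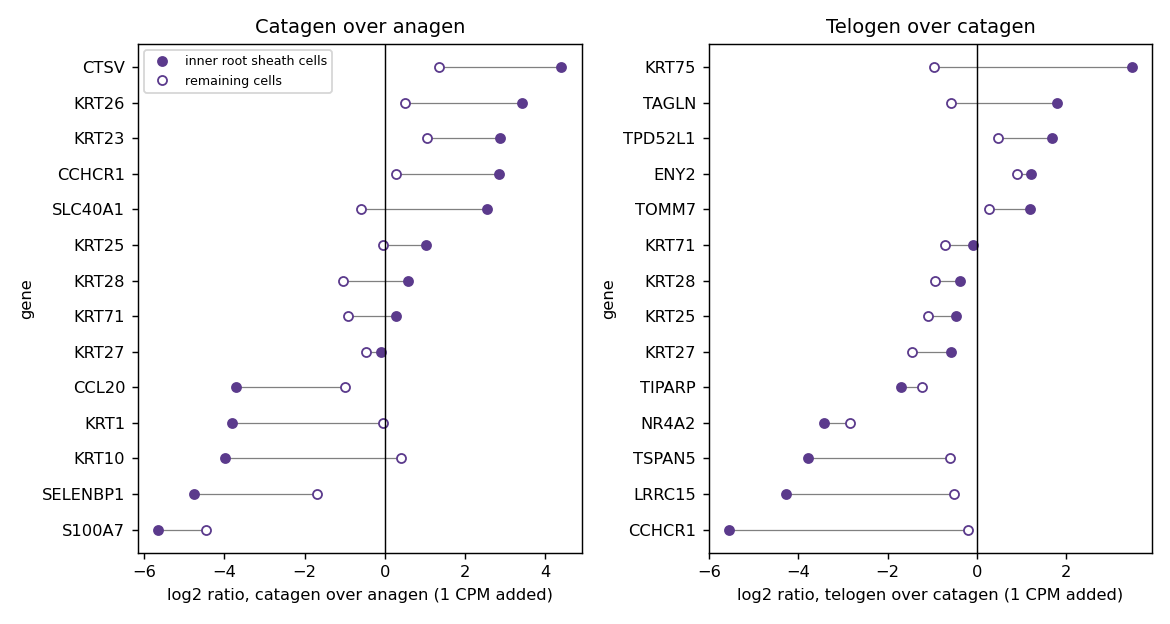
Log2 ratio with 1 CPM added (x axis) of catagen over anagen (left) and telogen over catagen (right) for the genes named by stage and the 4 keratins of the rule (y axis), in IRS cells (filled) and remaining cells (open), 1 library per stage. The keratins of the rule, which chose the cells, lie between -0.58 and 1.02 in IRS cells, and the filled points of *KRT1* and *KRT10* lie far to the left of their open partners in the left panel.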

How the data were processed

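The deposited files hold 1 matrix of UMI counts per library, written by Cell Ranger, with whole numbers per gene and barcode and no normalization by the authors. Per the file headers Cell Ranger 4.0.0 wrote the anagen, 3.1.0 the catagen and 6.0.2 the telogen matrix, while the submitters' processing notes name 2.1.1. The libraries held 12000, 12124 and 14573 barcodes with 82862998, 51647865 and 103511775 UMIs, and 13, 62 and 71 cells with fewer than 200 genes were left out. Of 26924 genes 15765 had a symbol. No doublet caller was run, and doublets were left in.

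UMIs were summed per library and class and given as CPM. Where intervals are given, they are exact conditional binomial for ratios, exact Poisson for levels and Clopper-Pearson or Newcombe for shares, all at 95%. A level of 0 allows up to 3 counts, or 1.23, 1.93 and 1.80 CPM in IRS cells. Calls used log2 ratios with 1 CPM added and at least 10 CPM in either class. Named genes were the rule's genes, the markers, up to 4 genes with at least 50 CPM per list by size of the ratio, the 10 highest and 8 lowest genes with a symbol, the 5 highest and 5 lowest by stage, and the 5 most like the rule in share. Other genes named had been chosen after their values were seen. 22 lists hold 402 genes, 314 with a row. The members and the lists were chosen with earlier results of these data known. The ratio and interval code was tested on simulated data. Alternatives were other keratin thresholds, cell and level minimums, scalings, thinning and leaving out deep cells. Python 3.11.15 with numpy 2.4.6, scipy 1.17.1, pandas 2.3.3 and matplotlib 3.10.9 was used.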

Additional observations from a re-analysis of the deposited data

Results flagged for a closer look

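*CCHCR1* moved in opposite directions between libraries. In catagen it was higher in IRS cells than in the remaining cells, with a log2 ratio of 2.16, and in telogen it was lower, with -3.21. The difference between these values was not tested, because each stage has 1 library. 1 cell held 72.5% of the catagen UMIs of *CCHCR1* in IRS cells, and 24 UMIs lay behind the telogen value.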

How the results depend on the processing

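No paired analysis was possible because there is 1 library per stage and the labels give no replicate numbers. The share of IRS cells in anagen, catagen and telogen was 3.21%, 2.05% and 0.848% at a keratin threshold of 0.5%, 1.04%, 0.779% and 0.359% at 2%, and 1.53%, 1.95% and 0.687% among cells with at least 1000 genes. A minimum of 2404 UMIs gave 1.51% in catagen. The mean over cells, the merging of the upper ranges into at least 5% and leaving out the cell richest in a gene were chosen after seeing the data.

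With at least 50 CPM in place of 10, the genes 4-fold higher in IRS cells numbered 37, 65 and 55, and the lower ones 147, 192 and 174. With no minimum level 1026 (catagen) and 893 (telogen) were lower. Mean CPM over cells gave 233 higher in catagen, 240 in telogen and 265 lower in anagen. Without the deepest 5% of cells 286 were lower in anagen, and thinning gave 261 higher and 1023 lower in telogen.

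Between stages, the genes 2-fold higher and lower in IRS cells were 858 and 948 (catagen over anagen), 791 and 1257 (telogen over anagen) and 796 and 1211 (telogen over catagen) after thinning. They were 784 and 455, 557 and 724, and 652 and 1257 by the mean over cells. Without a minimum level they were 1216 and 799, 547 and 1140, and 849 and 1992. At 50 CPM they were 70 and 58, 42 and 63, and 185 and 166. Equal weight of the keratin ranges gave 513 higher in catagen over anagen. Median-of-ratios scaling gave 244 higher and 296 lower in catagen over anagen and 507 and 465 in telogen over catagen. The larger side thus changed in both. A 2% threshold gave 419 higher and 311 lower in catagen over anagen and 572 and 584 in telogen over catagen. For cells with at least 5% against 1 to 5%, the mean over cells gave 554 (anagen) and 686 (telogen) higher and 1498 lower in telogen.

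Of 1865 alternative values of named genes against the remaining cells, 998 lay outside the counting interval of the printed value, 200 of them after thinning, and 6 changed sign. These were *CENPF* (0.19) and *TOP2A* (0.68) in catagen and *KRT85* in telogen (0.10) after thinning, *SLC40A1* (-1.65) and *S100A8* (-1.14) in telogen without the richest cell, and *S100A8* (-0.67) without the deepest 5%. Of 1749 values between stages 594 lay outside that interval and 10 changed sign. After thinning these were *KRT75* (-1.44) and *ENY2* (-0.27) in telogen over anagen and *TOMM7* (-0.37) and *ENY2* (-0.37) in telogen over catagen. By the mean over cells they were *CD74* (0.19) and *TOP2A* (-0.63) in catagen over anagen, *CD74* (0.013) in telogen over anagen and *KRT72* (0.039) in telogen over catagen. At 2% they were *S100A7* (0.58) in telogen over anagen and *KRT85* (-0.21) in telogen over catagen. Median-of-ratios scaling changed 0 signs. Of 236 values of cells with at least 5% over 1 to 5%, 67 lay outside the interval without the richest cell and 5 changed sign, *CCL20* (0.032), *TSPAN5* (-0.77) and *CD74* (0.11) in anagen and *KRT75* (0.64) and *SERPINB12* (-0.12) in telogen. The causes were not tested. Single deep cells and 1 library per stage limit every value here.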

Other observations

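Cells just below the threshold carried part of the same profile. In cells with 0.5% to 1% of UMIs from the 4 keratins (167, 99 and 43 cells), *PMP2* had 1185, 815 and 1679 CPM and *CTSH* 479.7, 328 and 176, against 64.9, 55.1 and 57.4 and 23.1, 21.1 and 5.06 in cells with less than 0.1%. *KRT73* had 379, 388 and 243 CPM in the cells just below the threshold, more than the 172, 248 and 153 CPM of the IRS cells in all 3 libraries. *FGF2* had 248, 285 and 322 CPM there and 277, 192 and 269 in IRS cells. *KRT14* was at 2417, 1379 and 5612 CPM there, above the IRS cells and below the cells with less than 0.1%, which had 11764, 12693 and 21208. The *KRT28* share of the UMIs of the 4 keratins in these cells was 23.4%, 25.2% and 16.5%, higher than in IRS cells with 1 to 5%.

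The cuticle keratins met in the same cells to different extents. Of the 13, 15 and 10 IRS cells with a *KRT72* UMI, 7, 11 and 6 also had a *KRT73* UMI. Of the 19, 25 and 8 cells with a *KRT26* UMI, 4, 5 and 4 had *KRT73* and 3, 4 and 2 had *KRT72*. No expectation was computed for these numbers, which depend on the depth of each cell.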
